A study of Mus musculus with 12 samples.

Results

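The comparison described here is the difference between genotypes in macrophages given lipopolysaccharide (LPS): 3 RNA sequencing libraries of LPS-treated Lyz2-Cre-Hdac3f/f cells against 3 libraries of LPS-treated Hdac3f/f cells, which are 6 of the 12 samples of the series. All genes were taken: of 54532 genes in the deposited count table, 14286 had enough reads to be tested. The cells were bone marrow-derived macrophages (BMDM), grown from the marrow of 8-week-old mice in 10 ng/ml macrophage colony-stimulating factor. All 4 groups of the series carry the floxed Hdac3 alleles. Hdac3f/f cells have no Cre in their genotype label, and Lyz2-Cre-Hdac3f/f cells (Lyz2-Cre below) carry Cre recombinase at the lysozyme 2 locus, which is active in myeloid cells and so only in those cells of a marrow culture that use that locus. LPS was given at 500 ng/ml for 4 h, and the untreated groups of each genotype, with 3 libraries each, were kept in medium without LPS for the same time. The labels do not say whether the 3 replicates came from separate mice or separate cultures, so p-values measure the spread between these libraries, which may be technical.

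LPS is a component of the outer membrane of Gram-negative bacteria. Macrophages sense it through Toll-like receptor 4, which acts through the adaptor MyD88 to switch on NF-kB and AP-1 transcription factors, and through the adaptor TRIF to switch on IRF3, interferon beta and then interferon-stimulated genes by way of STAT factors. HDAC3 is a histone deacetylase that works as the enzyme of the NCoR and SMRT corepressor complexes, which sit at many enhancers of inflammatory and lipid genes, and it is also known to be needed for part of the inflammatory gene programme of macrophages.

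Totals in the 6 libraries ran from 17516617 to 18706990 counts. The first principal component of these 6 held 65.8% of the variance and separated the genotypes, and the second (12.1%) set replicate 1 of LPS-treated Hdac3f/f cells, at 38.91, apart from the other 5, which lay between -25.73 and 6.18. Between replicates, the mean chi-square of a gene was 13.7 to 22 within the LPS-treated Lyz2-Cre libraries and 21.8 to 51.5 within the LPS-treated Hdac3f/f libraries, where counting noise alone gives about 1. Levels are CPM, the counts of a gene relative to the library size scaled by the TMM method, and differences are log2 fold changes, Lyz2-Cre over Hdac3f/f, ± SE from edgeR's quasi-likelihood test with n = 3 libraries in each group. A gene was called higher or lower when its Benjamini-Hochberg adjusted p over all tested genes was under 0.05.

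The targeted gene was not called at the level of the whole transcript. Hdac3 stood at 40.7, 39.1 and 38.7 CPM in the LPS-treated Hdac3f/f libraries and at 37.9, 34.4 and 38.9 CPM in the LPS-treated Lyz2-Cre libraries. The groups overlapped, with a log2 fold change of -0.09 ± 0.09 (adjusted p = 0.473), and the value was on the other side of 0, at 0.175, when libraries were scaled by their totals alone. The count covers the whole gene and cannot separate the floxed exons from the rest, so it does not check the genotype labels, and every direction below is between groups as labelled. Lyz2, the lysozyme gene that carries Cre, stood at 10511, 12351 and 11253 CPM in Hdac3f/f and 6090, 6250 and 7728 CPM in Lyz2-Cre libraries. These groups did not overlap, but Lyz2 was not called in the fit of all 12 libraries (log2 fold change -0.77 ± 0.94, adjusted p = 0.557), in which it had a large spread, and was called in the 6 LPS-treated libraries alone (adjusted p = 0.00719).

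With LPS, 4656 of the 14286 genes (32.6%) were called, 2243 higher in Lyz2-Cre cells (15.7%) and 2413 lower (16.9%). Counts of list members with LPS below are to be read beside these shares. Changes were larger on the lower side: 362 called genes were lower by more than 2 on the log2 scale against 98 that were higher, and 80 were lower by more than 5 against 5 that were higher. All 3 libraries of one genotype lay beyond all 3 of the other for 1997 of the genes called higher and 2317 of those called lower. Over all 14286 tested genes, called or not, this held for 2930 on the higher and 3248 on the lower side. Lack of overlap is therefore common here. The split of calls depends on the scaling, since TMM factors ran from 0.7158 to 0.8222 in the Hdac3f/f and from 0.896 to 0.9368 in the Lyz2-Cre libraries. Scaled by totals, all genes had a median of 0.286 in place of 0.018, and 4465 genes were called higher and 1329 lower. Leaving out replicate 2 or 3 of LPS-treated Hdac3f/f cells gave 2983 and 2967 calls, leaving out replicate 1 or 2 of LPS-treated Lyz2-Cre cells 2798 and 3071, and leaving out the Hdac3f/f library that stood apart, replicate 1, gave 3007 higher and 2997 lower. In the authors' deposited table, 1717 genes were higher and 2242 lower in Lyz2-Cre cells at an adjusted p under 0.05. Of these, 1588 and 2058 were called the same way here and 0 the opposite way.

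**Figure D1:**
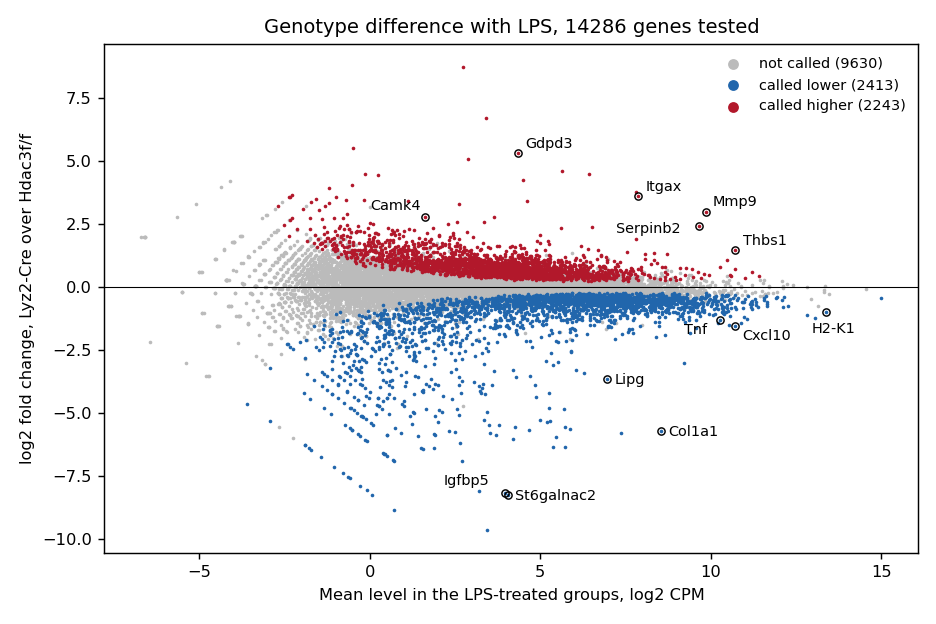
Each point is 1 of the tested genes, with its mean level over the LPS-treated groups on the x axis (log2 CPM) and its log2 fold change, Lyz2-Cre over Hdac3f/f, on the y axis. Genes at 0 in all 6 libraries are not drawn. The lower side holds 80 called genes beyond -5 and the upper side 5 beyond 5.

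The difference followed the GC content of genes across the whole table, which is given here because it moves with part of the gene groups below. Lists with a median log2 fold change below 0 were found at high and at low GC content. Those of high GC content include AP-1 factors (list median 55.5%), MAP kinase phosphatases (55.0%), MHC class I genes (54.4%) and NF-kB regulators (54.1%). Those of low GC content include the CC chemokines (46.2%), the CXC chemokines (44.6%) and the GBP and IRG GTPases (43.5%). Of the last list, 1 of 15 members was called lower. The median GC content was 44.8% in genes called higher, 53.5% in genes called lower and 49.6% in all tested genes, and Spearman's rho across 14273 genes was -0.43 (a description, as genes are not independent). From the fifth of genes with the lowest GC content to the fifth with the highest, the median log2 fold change was 0.42, 0.24, 0.01, -0.16 and -0.30. The libraries differed one by one in the same measure: the rho between a library's deviation from the mean of all 12 libraries and GC content was -0.04, 0.34 and 0.23 in the Hdac3f/f and -0.29, -0.26 and -0.12 in the Lyz2-Cre libraries. An additional fit with offsets for GC content and gene length, chosen after seeing the data, called 1496 of the 2243 higher and 1589 of the 2413 lower genes the same way. The part of GC content in the remaining calls was not tested, and counts under this fit are given below as "with GC and length offsets" where a count of 4 or more moved by more than 1.5 times.

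**Figure D2:**
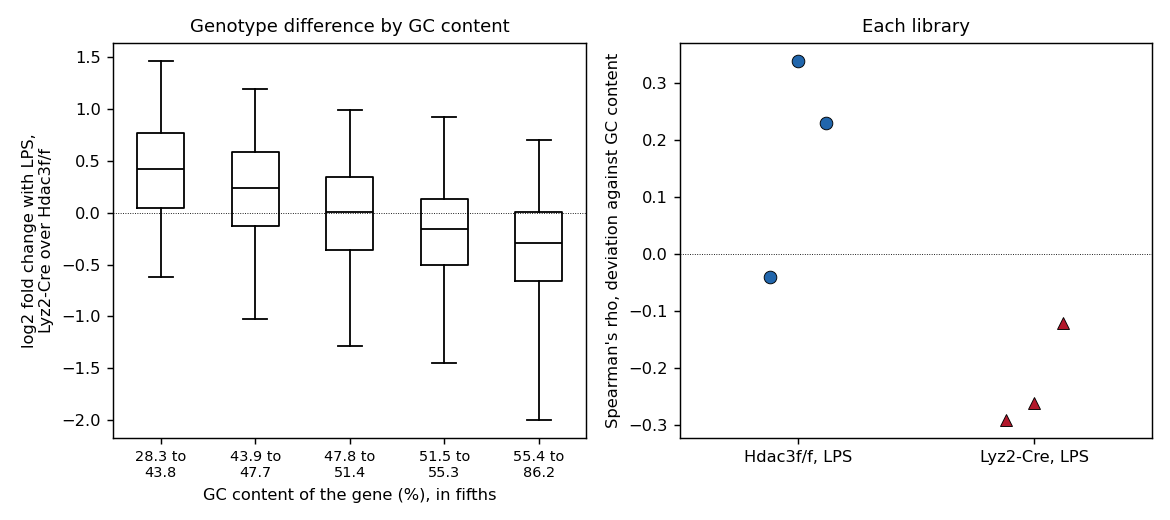
Left, log2 fold change with LPS (y axis) in 5 equal bins of genes by GC content in percent (x axis), with boxes from the lower to the upper quartile, a line at the median and whiskers from the 5th to the 95th percentile. Right, Spearman's rho between GC content and the deviation of each LPS-treated library from the mean of all 12, with 1 point per library. The medians go from 0.42 to -0.30, and all 3 Lyz2-Cre libraries lie below the 3 Hdac3f/f libraries.

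Itgax, Gdpd3, Mmp9 and Serpinb2 were among the largest rises under the naming rule, which leaves out predicted names and genes under 5 CPM. Itgax (ENSMUSG00000030789, mm10 chromosome 7, 128129547 to 128150657) encodes CD11c, an integrin alpha chain of dendritic cells and some macrophages. It stood at 36.7, 33.4 and 37.0 CPM in Hdac3f/f and at 438, 444 and 418 CPM in Lyz2-Cre libraries. That is a 12.1-fold difference (log2 fold change 3.60 ± 0.15, adjusted p = 1.15e-07), far beyond the spread in either group. Gdpd3 (ENSMUSG00000030703), which encodes a lysophospholipase D, was near 1 CPM in Hdac3f/f cells, at 1.53, 0.546 and 0.871 CPM. In Lyz2-Cre cells it stood at 32.4, 30.3 and 55.9 CPM (log2 fold change 5.30 ± 0.34). Mmp9 (ENSMUSG00000017737), the gelatinase that cuts collagen IV and denatured collagens, stood at 212, 263 and 148 against 1805, 1658 and 1449 CPM (2.98 ± 0.22). Serpinb2, the plasminogen activator inhibitor 2, stood at 308, 252 and 197 against 1236, 1486 and 1338 CPM (2.42 ± 0.30). For all 4 of these genes the genotypes lay far apart, with no overlap.

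Other large rises by the naming rule were Camk4 (2.77 ± 0.34), a calcium-dependent kinase, Itgad (2.58 ± 0.24), the CD11d integrin chain, and H2-DMb2 (2.48 ± 0.47), which helps load peptides on MHC class II. Ikzf2, the Helios transcription factor, Acpp, an acid phosphatase, Gucy1b1, a subunit of guanylate cyclase, and the receptor gene P2ry10 rose by 2.13 to 2.33 on the log2 scale. Mmrn1, multimerin 1, rose by 2.15 ± 0.65, a call that was lost when replicate 2 or 3 of Hdac3f/f or replicate 1 of Lyz2-Cre cells was left out. In CPM, the largest rises were those of Thbs1, Mmp9, Serpinb2, Ctsl, Cybb and Adgre1, of which the last 3 were not called with GC and length offsets. Adgre1 was no longer called under 12 of the 22 alternatives, which include DESeq2 size factors and the 6 LPS-treated libraries alone, and Cybb was also not called without replicate 2 or 3 of Hdac3f/f or replicate 1 of Lyz2-Cre cells. Thbs1, the matrix protein thrombospondin 1, stood at 814, 730 and 1170 CPM in Hdac3f/f and 2059, 2730 and 2621 CPM in Lyz2-Cre libraries (1.45 ± 0.37). Its groups did not overlap.

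The 5 genes higher by more than 5 on the log2 scale, named after their values were seen, were Gdpd3 and 4 genes of which 3 carry predicted names. Gm9825 and Gm3226, both annotated as processed pseudogenes, held 8 and 17 counts over the Hdac3f/f libraries and 1037 and 713 over the Lyz2-Cre libraries. Gm11127, beside the MHC class I genes on chromosome 17, held 1 against 652 counts, a ratio of 537 (exact 95% interval 96 to 21226, counting error only). Cd1d2 held 1 against 70 counts (ratio 57.6, 10.0 to 2308), and its libraries overlapped. All 5 were also called higher without LPS. Pseudogene and MHC reads can be shared with near-identical copies, so these counts are uncertain.

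Itgax lies in a row of integrin alpha genes on chromosome 7, and its neighbours did not move together. Itgam, 5' of Itgax, encodes CD11b, the macrophage integrin chain of complement receptor 3, and fell from 221, 151 and 180 CPM in Hdac3f/f to 76.1, 73.2 and 73.8 CPM in Lyz2-Cre libraries (log2 fold change -1.31 ± 0.12). Itgad, on the other side, rose from 2.43, 2.65 and 3.70 to 22.7, 16.4 and 13.4 CPM. Of the 12 tested genes of the integrin list 4 were called higher and 4 lower, among them Itgb3 (1.27), the beta 3 chain, and Itga5 (-1.01), the fibronectin receptor chain. Without replicate 2 of Hdac3f/f or replicate 1 of Lyz2-Cre cells 2 were higher. Further matrix protease and plasminogen genes were split in the same way, with 5 of 22 higher and 10 lower. Mmp8, the neutrophil collagenase, rose by 2.04 ± 0.30. Mmp25, a membrane-anchored protease, was lower (-1.93), as were the inhibitor genes Timp1 (-5.28) and Timp2 (-1.36) and the urokinase gene Plau (-1.01).

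**Figure D3:**
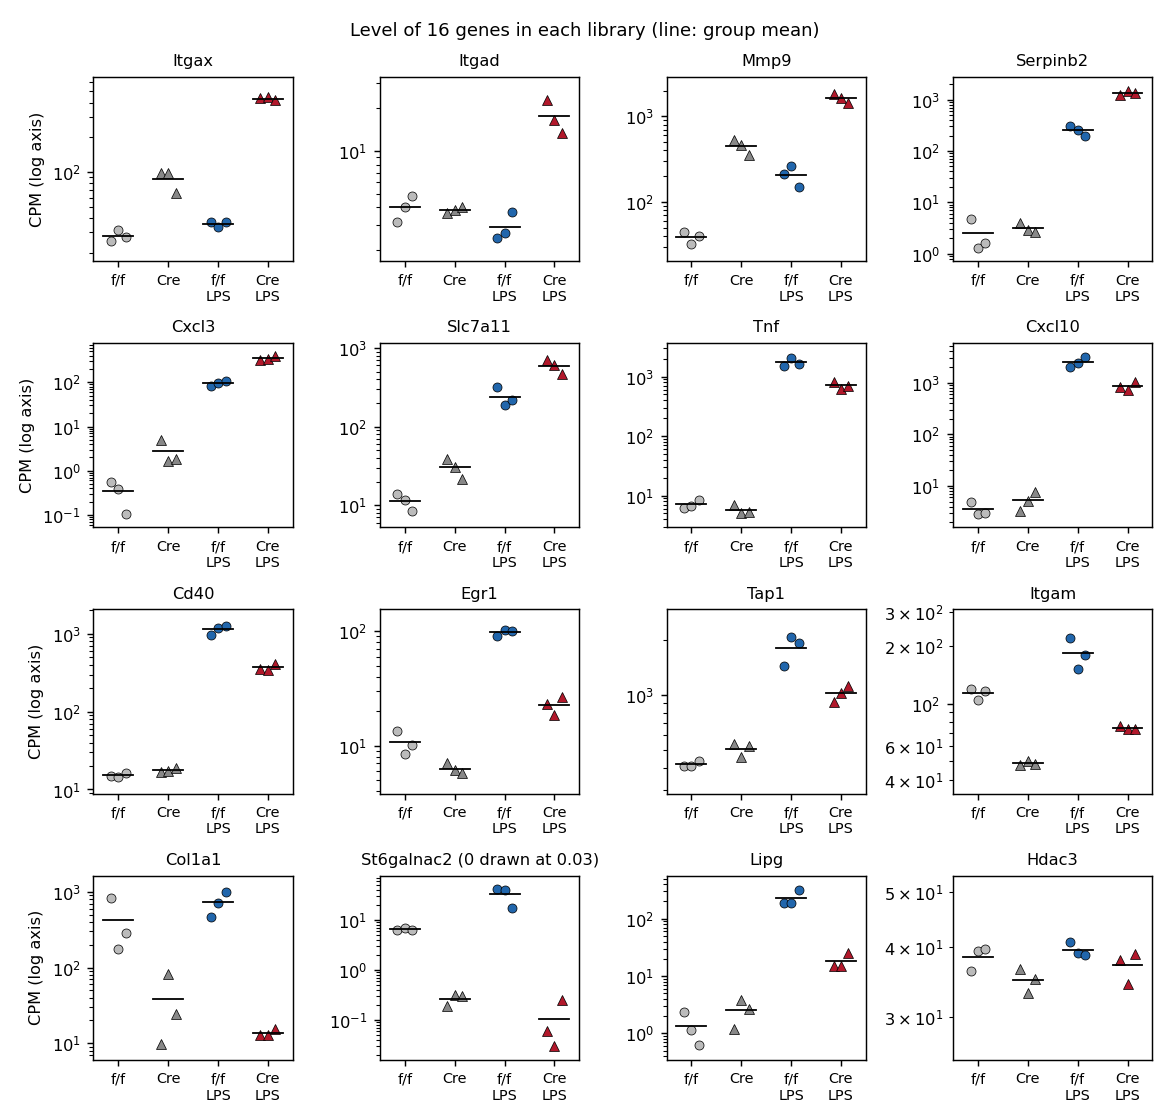
CPM on a log axis (y) of 16 genes in each of the 12 libraries, with 3 points and a line at the mean for untreated Hdac3f/f (f/f), untreated Lyz2-Cre (Cre), LPS-treated Hdac3f/f and LPS-treated Lyz2-Cre cells. With LPS, the genotypes do not overlap in the panels except that of Hdac3, where they lie between 34.4 and 40.7 CPM.

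Many of the largest falls were in genes of connective tissue cells. Collagen VI chain genes Col6a1 and Col6a2 had log2 fold changes of -5.98 and -6.37, Col3a1 of -6.36, the fibulin gene Fbln2 of -6.03 and Alpl, alkaline phosphatase, of -6.90. Igfbp5, an insulin-like growth factor binding protein, stood at 17.6, 24.9 and 50.3 CPM in Hdac3f/f and at 0.121, 0.0578 and 0.125 CPM in Lyz2-Cre libraries (-8.17 ± 1.04). The matricellular gene Wisp2 held 744 against 3 counts over the groups, a ratio of 301 (95% interval 103 to 1465). Islr and Ssc5d had ratios of 96.8 (32.7 to 473) and 92.8 (31.3 to 453). S1pr3, a sphingosine phosphate receptor, and Dkk3 had log2 fold changes of -6.19 and -6.38. For each gene of this paragraph the 3 Lyz2-Cre libraries lay below the 3 Hdac3f/f libraries.

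Markers of stromal cells, which a marrow culture can hold, moved with the genotype. Of 11 tested stromal and fibroblast markers 10 fell and 0 rose (median log2 fold change -4.53, against 0.018 over all genes tested). Their summed level was 1010, 1400 and 2070 CPM in the Hdac3f/f libraries and between 64.5 and 93.6 CPM in the Lyz2-Cre libraries. Col1a1 alone stood at 459, 718 and 1000.03 against 13.0, 12.8 and 15.4 CPM (-5.72 ± 0.79). Of 25 collagen alpha chain genes tested, a family chosen after its values were seen, 17 were called lower and 1 higher. In such bulk RNA, fewer cells of a type and less RNA per cell cannot be told apart. The part of stromal cells in the falls of matrix genes, growth factors and other genes they share with macrophages was not tested.

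One stretch of chromosome 11 also held very large falls. St6galnac2, a sialyltransferase gene (ENSMUSG00000057286, mm10 chromosome 11, 116675303 to 116694868), stood at 41.1, 40.5 and 17.6 CPM in Hdac3f/f and at 0.0604, 0 and 0.251 CPM in Lyz2-Cre libraries (-8.26 ± 0.52, adjusted p = 3.1e-06). The antisense gene BC018473, named after its values were seen, held 891 against 1 count, a ratio of 1083 (95% interval 194 to 42809). Cygb, cytoglobin, and St6galnac1, a second sialyltransferase gene, both also named after their values were seen, stood at 1.32 and 1.27 CPM on average against 0 in all 3 Lyz2-Cre libraries. Within 150 kb, Gm11735 (-6.47), 1810032O08Rik (-2.87), Sphk1 (-1.97) and Rhbdf2 (-0.89) were also called lower, whereas Ube2o was not called (0.18 ± 0.15) and Mettl23 was called higher (0.90 ± 0.20). St6galnac2, BC018473, Cygb and St6galnac1 were called lower without LPS as well.

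Markers of other blood cells were mixed, at summed levels far below those of macrophage markers. Of 8 tested mast cell and basophil markers 5 were called higher and 1, Hdc, lower, while the summed level overlapped between genotypes (204 to 288 against 208 to 366 CPM). Of these, Mcpt8 rose from 17.2, 20.8 and 23.6 to 40.4, 30.3 and 49.4 CPM. Among 14 T, NK and B cell markers 5 were higher and 1, Cd4, lower (a call lost with library totals and without replicate 3 of Hdac3f/f cells), at a summed 130 to 183 against 109 to 158 CPM. Cd3d, a chain of the T cell receptor complex, stayed below 5 CPM in each of the 6 libraries, and without replicate 2 of Hdac3f/f or replicate 3 of Lyz2-Cre cells 2 of the 14 were higher. Neutrophil markers had 1 of 13 higher and 1 lower (784 to 1080 against 602 to 906 CPM), dendritic cell markers 2 of 8 higher and 0 lower (36.5 to 43.7 against 46.2 to 54.3 CPM), erythroid and megakaryocyte markers 1 of 6 higher and 0 lower (375 to 566 against 655 to 799 CPM), and endothelial markers 0 of 10 higher and 1 lower (124 to 148 against 123 to 162 CPM). The dendritic cell calls were lost without replicate 2 of Hdac3f/f or replicate 1 or 3 of Lyz2-Cre cells, the erythroid call without replicate 1 or 2 of Hdac3f/f or replicate 1 or 3 of Lyz2-Cre cells, and the endothelial call without any 1 of the 6 libraries. Tpsb2 and Cd209a were at 0 in all 6 libraries. The part of these cells in the results was not tested. Macrophage markers were abundant in both groups, which accords with the label BMDM: the 15 summed to 27400 to 33400 CPM in Hdac3f/f and 22600 to 25000 CPM in Lyz2-Cre libraries. Of the 15, 3 were higher and 7 lower (3 lower with GC and length offsets). Without replicate 1 of Lyz2-Cre cells 0 were higher and 4 lower, without replicate 2 of Hdac3f/f cells 1 and 4, without replicate 3 of Hdac3f/f cells 4 were lower, without replicate 2 of Lyz2-Cre cells 1 was higher, and with library totals 7 were higher and 4 lower. Cd68, a lysosomal glycoprotein, fell by 0.85 and Spi1, the lineage factor PU.1, by 0.67. The call of Spi1 was lost with GC and length offsets. Csf1r, the receptor of the growth factor in the medium, rose by 0.36, a call that was lost when replicate 1 of Lyz2-Cre cells was left out.

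Among secreted signals of the LPS response more genes were called lower than higher in Lyz2-Cre cells, beside others that were not called. Of 19 tested interleukin and TNF genes 9 were called lower and 1 higher (median -0.64). Tnf stood at 1524, 2063 and 1649 CPM in Hdac3f/f and at 807, 620 and 697 CPM in Lyz2-Cre libraries. That is a 2.46-fold lower level (log2 fold change -1.30 ± 0.15, adjusted p = 0.000185), with no overlap. Il27, a subunit of interleukin 27, stood at 222, 345 and 321 against 78.8, 81.2 and 98.3 CPM (-1.78 ± 0.18). Il15 and Il18, which act on NK and T cells, fell by 1.21 and 1.18. The members that were not called, chosen after their values were seen, include the classical LPS genes Il6 (85.4 against 79.9 CPM, log2 fold change -0.10 ± 0.11), Il1b (2298 against 2403 CPM, 0.06 ± 0.29) and Il12b (96.0 against 102 CPM, 0.09 ± 0.23). Il12a, the partner of Il12b in interleukin 12, was the member that rose (0.60).

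Chemokines split by family member. Of 11 tested CC chemokines 7 fell and 1 rose (median -0.97). Ccl4, a chemokine of activated macrophages, stood at 836, 1281 and 1011 against 307, 194 and 382 CPM (-1.83 ± 0.30), and Ccl5, which attracts T cells, at 1840, 2140 and 2662 against 812, 548 and 962 CPM (-1.52 ± 0.35). Ccl8 was the member that rose (1.20), and Ccl2, the monocyte chemokine, was not called (-0.36 ± 0.20). Among 9 CXC chemokines 4 fell and 2 rose. The falls included all 3 ligands of CXCR3, a receptor of activated T cells. Cxcl9 stood at 52.5, 45.3 and 107.6 against 14.4, 9.65 and 9.47 CPM (-2.61 ± 0.40), Cxcl10 at 2009, 2379 and 3108 against 804, 720 and 1045 CPM (-1.55 ± 0.26), and Cxcl11 at 66.1, 72.2 and 127 against 14.5, 16.9 and 27.5 CPM (-2.17 ± 0.305). The rises were in ligands of the neutrophil receptor CXCR2. Cxcl3 stood at 81.5, 98.1 and 105 against 319, 345 and 390 CPM (1.89 ± 0.27) and Cxcl1 rose by 1.47, while Cxcl2, of the same family, was not called (-0.09 ± 0.23). Cxcl5, also of this family, was not called either (-0.52). Colony-stimulating factors and their receptors had 4 of 8 members lower and 1 higher. Csf1, the macrophage growth factor itself, fell from 65.7, 75.5 and 85.9 to 16.9, 12.8 and 19.6 CPM (-2.20 ± 0.32), and stromal cells make it too. With GC and length offsets that list had 2 members lower and 2 higher.

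The RefSeq promoters of 4 of these genes are shown because they pair a gene that rose with a gene that fell under the same motif. AP-1 (searched as TGANTCA) was found in those of Itgax and Cxcl10, and the NF-kB motif (GGGA, any base, then TTTCC) in those of Cxcl3 and Nfkbia, the gene of the NF-kB inhibitor IkB alpha. Each line gives the 250 bases before the annotated start (GRCm38.p6), 5' to 3' on the gene's strand, with the motif in capitals, and for Cxcl10 also the interferon-stimulated response element (ISRE, GAAA, any 2 bases, then GAAA).
Itgax (chr7:128129300-128129549, plus strand): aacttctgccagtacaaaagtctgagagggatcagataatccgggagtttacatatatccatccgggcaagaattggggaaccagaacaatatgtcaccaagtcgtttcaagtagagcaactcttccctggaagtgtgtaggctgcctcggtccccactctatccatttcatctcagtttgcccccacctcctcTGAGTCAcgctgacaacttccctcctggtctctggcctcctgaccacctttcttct
Cxcl3 (chr5:90785851-90786100, plus strand): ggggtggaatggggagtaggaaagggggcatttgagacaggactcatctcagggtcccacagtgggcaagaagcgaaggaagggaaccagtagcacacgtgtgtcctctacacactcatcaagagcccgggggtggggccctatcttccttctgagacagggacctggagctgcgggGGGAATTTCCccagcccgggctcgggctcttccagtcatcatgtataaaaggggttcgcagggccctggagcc
Cxcl10 (chr5:92348890-92349139, minus strand): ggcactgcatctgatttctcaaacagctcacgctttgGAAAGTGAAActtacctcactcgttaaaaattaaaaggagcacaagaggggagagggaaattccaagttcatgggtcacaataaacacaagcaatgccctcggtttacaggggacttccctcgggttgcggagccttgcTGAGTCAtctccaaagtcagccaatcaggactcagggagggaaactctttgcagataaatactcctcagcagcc
Nfkbia (chr12:55492648-55492897, minus strand): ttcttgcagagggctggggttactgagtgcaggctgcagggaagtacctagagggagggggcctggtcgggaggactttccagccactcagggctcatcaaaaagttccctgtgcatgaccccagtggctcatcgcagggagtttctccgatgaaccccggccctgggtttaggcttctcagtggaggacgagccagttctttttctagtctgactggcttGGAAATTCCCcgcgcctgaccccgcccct
All motifs were searched on both strands. In Itgax the AP-1 match lies 56 to 50 bases before the start and in Cxcl10 74 to 68 bases before it, with the ISRE match at 213 to 204. The NF-kB matches lie 73 to 64 bases before the start of Cxcl3 and, on the opposite strand, 29 to 20 bases before that of Nfkbia.

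Over the whole table, 10210 of 14283 tested symbols had an entry in the RefSeq table, with 13002 promoters, 2140 of them of genes called higher and 2419 of genes called lower. The ISRE motif was in 2.48% of promoters of genes called higher, 3.72% of those called lower and 2.88% of all. For AP-1 the shares were 3.55%, 5.37% and 4.75%, and for NF-kB 0.467%, 0.703% and 0.4%. They were 2.1%, 2.32% and 2.53% for the CRE motif (TGACGTCA), 2.34%, 2.89% and 2.78% for the PU.1 motif (GAGGAAGT) and 7.01%, 7.57% and 7.84% for the C/EBP motif (TTGCNNAA). Overlap between motifs was not removed. These shares are a description without a test. Called genes also differ in the GC content of their transcripts, and that of their promoters was not measured.

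Regulators downstream of Toll-like receptors were lower as well. Of 21 NF-kB subunits and feedback regulators 14 fell and 0 rose (median -0.60). Nfkbia stood at 1212, 1439 and 1241 against 697, 777 and 807 CPM (-0.77 ± 0.12), and the adaptor gene Traf1, an NF-kB target, at 674, 758 and 674 against 315, 350 and 363 CPM (-1.04 ± 0.09). Zfp36 encodes tristetraprolin, which destabilises cytokine mRNAs, and fell by 1.41 ± 0.15, while Nfkb1 was not called (-0.17 ± 0.09). Among AP-1 and immediate early factors 11 of 23 fell and 0 rose (median -0.65). Egr1, an immediate early factor, stood at 90.9, 103 and 101 against 23.2, 18.4 and 26.3 CPM (-2.12 ± 0.17), and Atf3, a repressor induced by stress and LPS, fell by 1.02. MAP kinase phosphatases, which switch off stress kinases, had 6 of 10 members lower and 0 higher (median -0.77). Dusp2 stood at 260, 340 and 387 against 67.8, 104 and 104 CPM (-1.84 ± 0.18), and Dusp1 fell by 1.09. In all 3 lists every named fall was present with GC and length offsets too. The list medians with these offsets were -0.27, -0.31 and -0.57. In the same order, 11, 9 and 6 members were called lower and 1, 2 and 1 higher. Rela, Bcl3, Jund and Klf2 were among the calls lost, and Nfkb1 was called lower there.

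Receptors and adaptors on the sensing side were not shifted as a list. Of 24 members 8 fell and 2 rose, with a median of -0.005 that was above 0 with library totals or upper quartile scaling. Without replicate 1 of LPS-treated Hdac3f/f cells 7 rose. Tlr4, the LPS receptor, rose by 0.85, and Ticam2, its bridging adaptor, by 0.70. Ticam1, which encodes TRIF, stood at 74.5, 104.1 and 84.4 against 37.0, 34.7 and 39.0 CPM (-1.25 ± 0.14), and Myd88 fell by 0.84. Nod1, a sensor of bacterial cell wall peptides, stood at 344, 404 and 412 against 192, 169 and 164 CPM (-1.14 ± 0.10), Nod2 fell by 0.67, and Tlr9, the receptor of bacterial DNA, by 1.59 ± 0.22. Inflammasome genes had 3 of 15 higher and 3 lower, near the shares of all tested genes (15.7% and 16.9%). Nlrc4, a sensor that works with NAIP proteins, rose by 1.02 and Nlrp1b by 2.22, from 1 CPM or less to between 1.38 and 5.14 CPM. Gsdmd, the pore former of pyroptosis, fell by 0.83, and Pycard, the adaptor ASC, by 0.69. With GC and length offsets 4 of the 15 were higher and 6 lower.

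Interferon response genes were lower in Lyz2-Cre cells with LPS, whereas without LPS they were higher. Of 30 antiviral interferon-stimulated genes 17 fell and 1 rose with LPS (median -0.55). Without LPS 17 of the 30 were higher and 0 lower, beside 5.12% of all tested genes called higher and 6.66% called lower in that comparison, which shares no library with the other. The interaction, which tests the difference with LPS against that without LPS, was called below 0 in 19 of the 30 and above 0 in 0, beside 5.54% and 2.58% of all genes. Isg20, an exonuclease that degrades viral RNA, stood at 466, 711 and 718 against 130, 144 and 233 CPM with LPS (-1.90 ± 0.21), and differed by 0.74 without LPS (adjusted p = 0.0432). Cmpk2, a mitochondrial nucleotide kinase, stood at 2527, 2535 and 3168 against 750, 907 and 1385 CPM with LPS (-1.44 ± 0.21). Oas1a and Oas1g, which sense double-stranded RNA, fell by 0.84 and 0.92, while Ifit1 was not called (-0.08 ± 0.215). Without replicate 1 of LPS-treated Hdac3f/f cells 16 of the 30 fell, and over the 6 omissions of an LPS-treated library the number ran from 13 to 17, while library totals gave 11.

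GBP and IRG GTPases, which attack the vacuoles of pathogens, had 1 of 15 lower and 0 higher with LPS (median -0.27), 10 higher and 0 lower without LPS, and 6 interaction terms called, all below 0. The member called lower, Igtp, lost its call when any of 5 single libraries was left out, replicate 1 or 3 of Hdac3f/f or any Lyz2-Cre replicate, or with library totals, and with GC and length offsets 8 of the 15 were lower. Of 23 interferon regulatory factors, STATs and Janus kinases 13 fell and 1 rose. Irf1 stood at 1011, 1069 and 1320 against 631, 578 and 609 CPM (-0.90 ± 0.14), and Tyk2, the kinase of the interferon receptor, fell by 1.02 ± 0.12. Irf5 and Stat5a fell by 1.04 and 0.98, and Ifngr1, a receptor chain for interferon gamma, was the member that rose (0.63). With GC and length offsets, or with library totals, 8 of these 23 were lower.

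Antigen presentation genes were mostly lower. Of 15 MHC class I genes 13 fell and 1, Erap1, rose (median -0.87), while without LPS 0 were called in either direction, and 11 interaction terms were called, all below 0. The rise of Erap1 was lost without replicate 2 or 3 of Hdac3f/f or replicate 1 or 2 of Lyz2-Cre cells. H2-K1 stood at 10895, 16840 and 14598 against 6306, 7303 and 7678 CPM (-0.99 ± 0.20), and H2-D1, the other classical class I heavy chain, fell by 1.24 ± 0.24. Tap1 and Tap2, the peptide transporter, fell by 0.83 and 0.92, and Psmb10, an immunoproteasome subunit, by 1.15 ± 0.17. B2m, the light chain, was not called (0.00). Reads of class I heavy chain genes can be shared between near-identical copies. MHC class II and costimulation genes had 10 of 18 lower and 0 higher (median -0.94). H2-DMb2, a class II loading gene that is not in this list, was among the largest rises named above. The falls named next are not of class II genes themselves. Cd40, the receptor for T cell help, stood at 982, 1198 and 1267 against 357, 345 and 414 CPM (-1.63 ± 0.12, adjusted p = 7.96e-06). Cd83, a maturation marker, stood at 96.2, 95.2 and 98.3 against 27.8, 27.8 and 35.9 CPM (-1.66 ± 0.16). Cd69 fell by 1.25 and Icam1, the adhesion ligand of beta 2 integrins, by 1.08, while Cd80 and Cd86 were not called (-0.01 and -0.41).

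**Figure D4:**
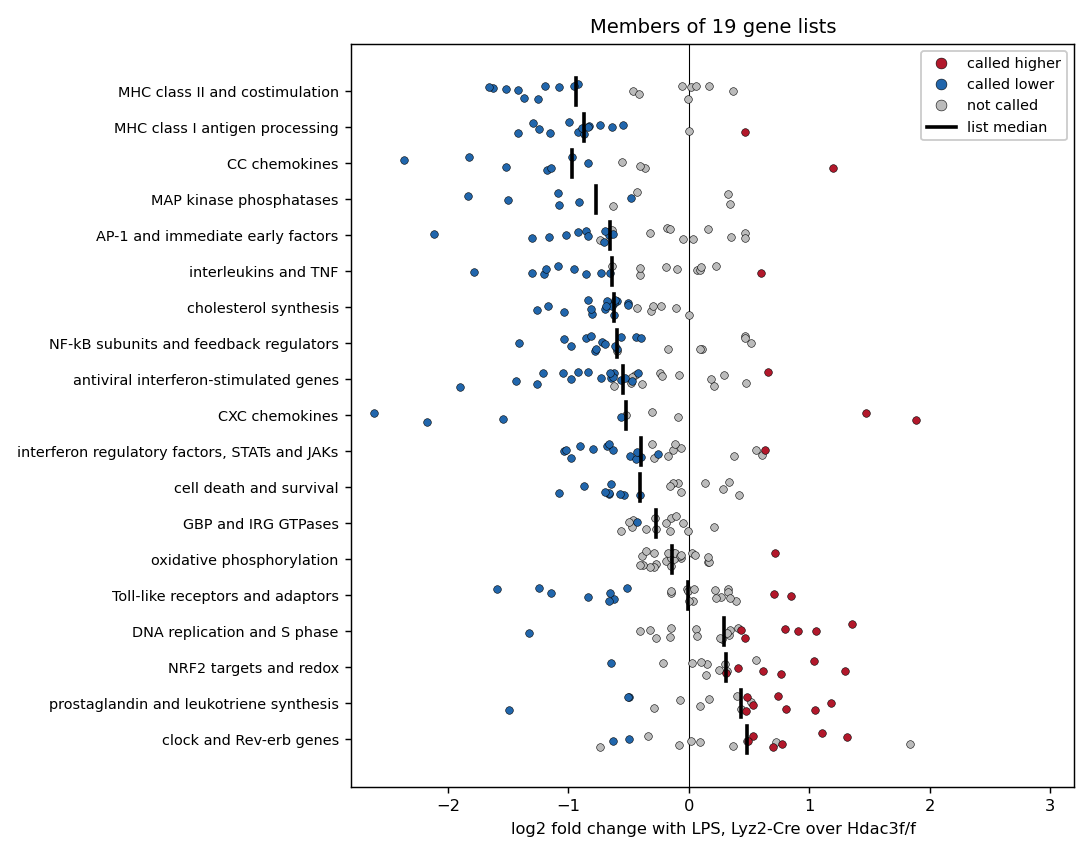
Log2 fold change with LPS, Lyz2-Cre over Hdac3f/f (x axis), of the tested members of 19 gene lists (rows), with 1 point per gene coloured by its call and a bar at the list median. Antigen presentation, chemokine, phosphatase and immediate early lists have medians from -0.97 to -0.52, and the lists of eicosanoid and clock genes have medians of 0.44 and 0.49.

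Lipid genes divided by pathway. In the eicosanoid list, genes that make and sense prostaglandins and leukotrienes, 7 of 17 rose and 3 fell (median 0.44). Ptger2, a prostaglandin E2 receptor, stood at 16.3, 15.1 and 16.4 against 32.5, 37.3 and 38.6 CPM (1.18 ± 0.13). Pla2g7, the platelet-activating factor acetylhydrolase, rose by 0.74 and Alox5, which starts leukotriene synthesis, by 0.81, while the inducible cyclooxygenase Ptgs2 was not called (0.44 ± 0.34). Cholesterol synthesis genes had 16 of 22 lower and 0 higher (median -0.62), and 9 of 22 were lower without LPS. The enzyme genes Fdft1 and Pmvk fell by 1.04 and 1.26 and Srebf2, the master regulator of the pathway, by 0.69. Without replicate 2 of LPS-treated Lyz2-Cre cells 8 were lower, and with library totals 5. LXR targets had 9 of 14 lower and 1 higher. Abca1, the cholesterol exporter, rose from 245, 159 and 224 to 443, 490 and 378 CPM (1.06 ± 0.21). Abcg1, the other exporter, fell by 0.70 and Nr1h3, LXR alpha, by 0.92. Without replicate 2 of Hdac3f/f, or replicate 1 or 2 of Lyz2-Cre cells, 5 of the 14 were lower. With GC and length offsets 4 were lower, and Apoe, which fell by 0.45 here, was not called and stood at 0.02. PPAR and lipid uptake genes had 3 of 13 higher and 4 lower. Fabp4, a fatty acid binding protein, stood at 116, 148 and 156 against 51.4, 44.8 and 50.5 CPM (-1.52 ± 0.21), and with GC and length offsets 0 of the 13 were higher. Without replicate 2 of Hdac3f/f or replicate 1 or 2 of Lyz2-Cre cells, or with library totals, 1 was lower, and without replicate 3 of either genotype 2.

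Metabolic gene lists differed in how many members were called, beside 15.7% of all tested genes called higher and 16.9% called lower. Fatty acid oxidation had 4 of 22 higher and 2 lower, with Acadm, an acyl-CoA dehydrogenase, higher by 0.98 and Etfdh, which passes electrons to the respiratory chain, by 1.14. In oxidative phosphorylation 1 of 24, Ndufs1, rose (0.72) and 0 fell, and in glycolysis and hypoxia 2 of 22 rose and 3 fell, with the hypoxia gene Ndrg1 lower by 0.87. With library totals 14, 7 and 6 members of these 3 lists were higher, and without replicate 1 of LPS-treated Hdac3f/f cells 5 oxidative phosphorylation genes were lower. Of 16 NRF2 targets and redox genes 6 rose and 1, the inhibitor gene Keap1, fell (median 0.31), and with library totals 13 rose. Slc7a11, the cystine importer, stood at 317, 186 and 219 against 706, 602 and 464 CPM (1.29 ± 0.24), Gclc, the first enzyme of glutathione synthesis, rose by 1.04 and Nqo1 by 0.76. Nitric oxide, arginine and itaconate genes had 0 of 11 higher and 3 lower. Acod1, which makes itaconate, stood at 6256, 4956 and 5763 against 3495, 2808 and 3519 CPM (-0.79 ± 0.16), Ass1 fell by 0.77, and Nos2 was not called (-0.33 ± 0.29). Amino acid transporters had 3 of 13 higher and 4 lower, with Slc43a2 higher by 0.78 and Slc7a8 lower by 0.80, and 7 were lower without replicate 1 of Hdac3f/f cells and 1 higher without replicate 2 of Hdac3f/f or replicate 1 of Lyz2-Cre cells. Endoplasmic reticulum and integrated stress genes had 1 of 16 higher and 5 lower (3 lower with GC and length offsets), with Ppp1r15a, which restarts translation after stress, lower by 1.35 ± 0.18. In that list 2 were lower without replicate 2 of Hdac3f/f cells or with library totals, and 3 without replicate 3 of Hdac3f/f or replicate 1 or 2 of Lyz2-Cre cells.

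Growth and survival genes moved in part. Of all tested genes 15.7% were called higher and 16.9% lower with LPS, and 5.12% and 6.66% without LPS. The counts of mitosis genes and p53 targets with LPS were near these shares. DNA replication genes had 6 of 20 higher and 1 lower with LPS (median 0.30) but 0 higher and 9 lower without LPS, and 10 interaction terms were called, all above 0. With library totals 11 were higher with LPS. Mcm4, a subunit of the replicative helicase, stood at 6.6, 3.82 and 5.88 against 11, 10.3 and 12.6 CPM (1.05 ± 0.19), and Cdt1, a licensing factor, was the member that fell, by 1.32. Mitosis genes had 3 of 20 higher and 4 lower with LPS and 0 higher and 10 lower without. Without replicate 3 of Hdac3f/f or replicate 1 of Lyz2-Cre cells 1 was higher and 1 lower, without replicate 2 of Hdac3f/f cells 0 were higher, and without replicate 2 of Lyz2-Cre cells 1 was lower. Birc5, survivin, fell by 0.87. Of 14 p53 targets 2 rose and 3 fell, with Trp53inp1 higher by 1.61 ± 0.19, Cdkn1a, the cell cycle inhibitor p21, lower by 0.94 and Phlda3 lower by 1.42. Cell death and survival genes had 9 of 17 lower and 0 higher (median -0.40), with 5 lower under library totals. Among these, Bcl2l1, the survival gene of BCL-XL, stood at 291, 440 and 392 against 166, 165 and 202 CPM (-1.07 ± 0.16).

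Genes of phagocytosis and tissue macrophages were mixed. Lysosome and cathepsin genes had 3 of 20 higher and 6 lower (2 lower with GC and length offsets, and 9 higher and 3 lower with library totals), with Ctsa, a carboxypeptidase, lower by 0.57. Ctsl, cathepsin L, was called higher at 926, 868 and 923 CPM in Hdac3f/f against 1833, 1057 and 2843 CPM in Lyz2-Cre libraries (1.08 ± 0.33), a call that was lost without replicate 2 or 3 of Hdac3f/f and without replicate 1 or 3 of Lyz2-Cre cells. Of 12 alternative activation genes 1 rose and 6 fell, the falls including the lectin gene Clec10a (-1.05), and with GC and length offsets 4 fell. Without replicate 3 of Hdac3f/f or replicate 1 of Lyz2-Cre cells 2 fell, without replicate 2 of Lyz2-Cre cells 3, and the rise was lost whichever LPS-treated library was left out. C-type lectin, Fc and TREM receptors had 4 of 19 higher and 2 lower (2 higher with GC and length offsets, and without replicate 3 of Hdac3f/f or replicate 2 of Lyz2-Cre cells, and 8 with library totals). Clec4n, which encodes the fungal receptor dectin 2, stood at 126, 150 and 188 against 385, 340 and 414 CPM (1.29 ± 0.14). Trem2, a lipid receptor, fell by 1.22 ± 0.23 and Fcgr1, the high-affinity receptor for IgG, by 0.81. Complement genes had 8 of 12 lower and 1 higher (5 lower with GC and length offsets). Without replicate 1 of Lyz2-Cre cells 2 were lower, without replicate 2 of Hdac3f/f cells 4, without any of replicate 3 of Hdac3f/f and replicates 2 and 3 of Lyz2-Cre cells 5, and with library totals 3. Here C1qb stood at 3037, 4942 and 4047 against 2171, 2394 and 2532 CPM (-0.76 ± 0.16), and Serping1, the C1 inhibitor that stromal cells also express, fell by 5.89.

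HDAC3 partners and the clock genes it is known to serve were also compared. Of 18 HDAC and NCoR/SMRT complex genes 5 rose and 2 fell, and with GC and length offsets 9 rose and 1 fell. With library totals 11 rose and 0 fell, and 2 rose without replicate 2 of Hdac3f/f or replicate 1 or 2 of Lyz2-Cre cells, and 3 without replicate 3 of Hdac3f/f cells. Hdac2, a class I relative of Hdac3, stood at 18.2, 13.1 and 11.6 against 28.7, 23.2 and 26.2 CPM (0.86 ± 0.15), Tbl1xr1, a corepressor subunit, rose by 1.17 ± 0.18 and Hdac1 fell by 0.44. The call of Hdac1 was lost with library totals. Clock and Rev-erb genes had 6 of 17 higher and 2 lower (median 0.49), among them Rora, a nuclear receptor activator of the clock, at 6.74, 3.82 and 3.99 against 11.5, 8.84 and 11 CPM (1.10 ± 0.22). Nr1d2, which encodes Rev-erb beta, a receptor that recruits NCoR and HDAC3, rose by 0.78, a call that was lost without replicate 1 of Lyz2-Cre cells. Without that library 1 of the 17 was higher, and leaving out any other LPS-treated library gave 4 or 5.

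Set beside the untreated cells, the difference with LPS was wider and in part opposite. Without LPS 732 genes were called higher and 952 lower. Of the genes called higher with LPS, 238 were also higher without it, which is 10.6% of the list with LPS and 32.5% of the list without. Of those called lower, 547 were lower in both, 22.7% and 57.5% of the 2 lists. A further 105 genes were lower with LPS and higher without, and 15 were higher with LPS and lower without. The interaction was called for 369 genes above 0 and 791 below 0. The stromal markers were lower in both settings, with 7 of 11 lower without LPS and 0 interaction terms called.

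Under the naming rule, which asks for at least 5 CPM, the largest interaction terms below 0 were those of Cxcl11 (-4.79) and Lipg (-4.53). Lipg, endothelial lipase, stood at 191, 186 and 318 against 15, 15.1 and 25.2 CPM with LPS (-3.65 ± 0.38), while without LPS its log2 fold change was 0.88 (adjusted p = 0.264), at 1.36 and 2.54 CPM on average. Cxcl11, which the annotation lists as a polymorphic pseudogene, was near 0 without LPS, at an average of 0.0919 CPM in Hdac3f/f and 0.623 CPM in Lyz2-Cre cells. The largest terms above 0 under the same rule were those of Itgad (2.64), Rgs18 (2.24), Serpinb2 (2.14), Itgax (1.96) and Dock5 (1.82). The call of Rgs18 with LPS was lost with the replicate number as a block, with limma-voom, with GC and length offsets and without any of 5 single LPS-treated libraries, all but replicate 2 of Lyz2-Cre cells. Itgax was higher in Lyz2-Cre cells in both settings, at 27.9 against 87.1 CPM on average without LPS, whereas Serpinb2 stood at 2.56 against 3.17 CPM without LPS and was not called there. Mmp9 and Gdpd3 were called higher in both settings, with interaction terms of -0.53 (adjusted p = 0.3) and 0.46 (adjusted p = 0.608) that were not called.

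**Figure D5:**
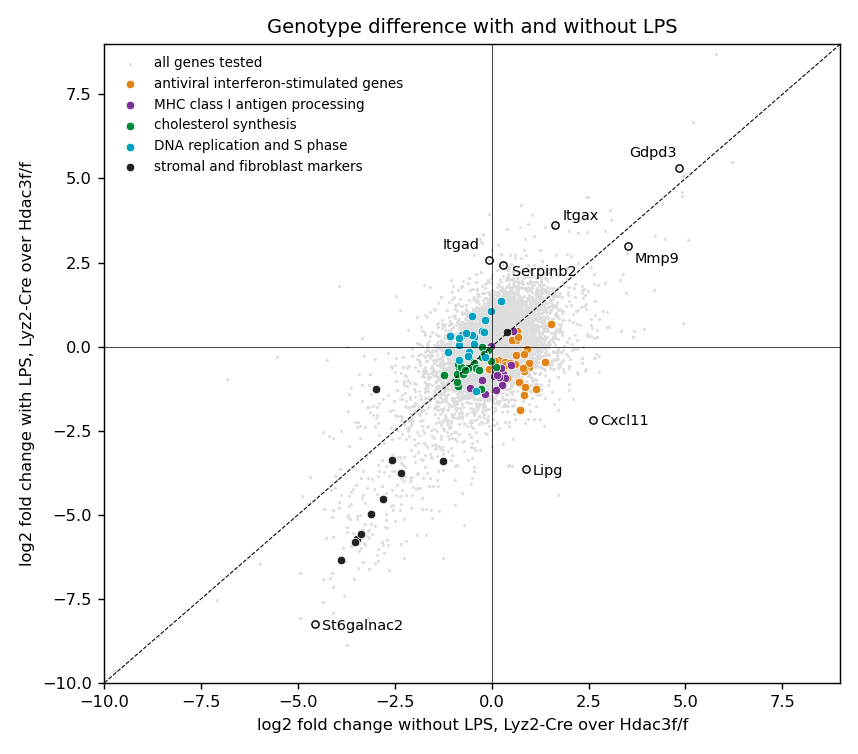
Log2 fold change, Lyz2-Cre over Hdac3f/f, without LPS (x axis) and with LPS (y axis) for all tested genes, with 5 lists coloured and 8 genes named; the dashed line marks equal differences. Of the 30 antiviral genes 24 lie to the right of 0 and below 0, 10 of the 11 stromal markers lie below 0, and Itgax and Itgad lie above the line.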

How the data were processed

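Whole-gene counts of the 12 libraries came from the authors' deposited table. The same table held 12 columns of per-sample normalised values, which were not used, a gene length, and the authors' log2 fold changes and p-values for their own comparisons, which are quoted as the authors' deposited values. Per the submitters' processing notes, reads were aligned with TopHat2 to mm10; the counting tool and annotation are not given in the sources used here, nor is strandedness. Counts were fitted with edgeR 4.0.16 (R 4.3.3) by the quasi-likelihood test, TMM scaling and filterByExpr, with 4 groups of 3 libraries in 1 fit of 12, and contrasts for genotype with LPS, without LPS and their difference. The fit was tested on simulated data. Alternatives used DESeq2 1.42.0, limma 3.58.1 and offsets from mgcv 1.9.3. Intervals of count ratios are exact, at 95%, and cover counting error only, and a group at 0 was set to 3 counts. Genes were named by a rule: Hdac3 and Lyz2, the 12 largest rises and 12 largest falls at 5 CPM or more without overlap and with no predicted name, the 6 largest of each in CPM, up to 4 called members of each list by p, and the 5 largest interaction terms of each sign. Other named genes were chosen after their values were seen, such as Il6, Ccl2, Ccl8, Cxcl1, Tlr4, Myd88, Timp1, Itga5, Itgb3, Ifit1, Nfkb1, B2m, Cd86 and Nos2. Values of some genes are not reported here. The members and gene lists were chosen with earlier results of these data known.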

Additional observations from a re-analysis of the deposited data

Results flagged for a closer look

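The interaction term of edgeR's quasi-likelihood test was called at a Benjamini-Hochberg adjusted p under 0.05 for 87 of the 195 genes chosen by the naming rule. Over all tested genes, 2.58% were called above 0 and 5.54% below 0. The rule picks genes by their values with LPS and partly by called interaction terms. The 87 is therefore a list, not a result about these genes. Each value is the log2 fold change, Lyz2-Cre over Hdac3f/f, with LPS minus that without LPS.

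The term was below -2 for Cxcl11 (-4.79), Lipg (-4.53), St6galnac2 (-3.7), Mxra8 (-3.56), Slco2a1 (-3.53), Ssc5d (-3.45), Il27 (-2.92), Mmp25 (-2.9), Isg20 (-2.64), Ccl5 (-2.55), Cd69 (-2.54), Hdc (-2.32), Cmpk2 (-2.26), Cxcl10 (-2.09), Tlr9 (-2.03) and Kdr (-2.02). Some of these rest on few counts: St6galnac2 held 5 over the LPS-treated Lyz2-Cre libraries, and Cxcl11 was barely detected without LPS.

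It lay between -2 and -1 for Acod1 (-1.91), Cd40 (-1.84), Il18 (-1.69), Il15 (-1.68), Ccl12 (-1.63), Fabp4 (-1.61), Ppp1r15a (-1.47), Slc7a8 (-1.44), Nod1 (-1.44), Psmb10 (-1.42), Irf1 (-1.4), Nod2 (-1.39), Egr1 (-1.35), C3 (-1.33), Oas1g (-1.32), Dusp2 (-1.27), Traf1 (-1.26), Tap2 (-1.25), Batf (-1.23), Gch1 (-1.18), Gsdmd (-1.17), Ass1 (-1.15), Ier2 (-1.14), Fcgr1 (-1.13), Abcg1 (-1.12), Tap1 (-1.12), Slc7a7 (-1.09), Igtp (-1.04), Marcksl1 (-1.02), Tnf (-1.01) and Nr1h3 (-1.01).

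Smaller terms below 0 were those of Bcl2a1b (-0.99), Apoe (-0.99), Il4ra (-0.98), Oas1a (-0.97), Plau (-0.96), Tapbp (-0.93), Stat5a (-0.91), Nfkbia (-0.87), Irf5 (-0.86), Zfp36 (-0.85), Bid (-0.84), Tyk2 (-0.84), Actb (-0.8), Hk1 (-0.75), Ticam1 (-0.72), Pycard (-0.71), Atf4 (-0.69), Itgb5 (-0.67), Slc38a1 (-0.67), Csf3r (-0.67), Keap1 (-0.62), Nfkbie (-0.62) and Hdac1 (-0.44).

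Terms above 0 were those of Clec7a (0.75), Bnip3 (0.87), Gclc (0.87), Rrm1 (0.96), Hdac2 (0.97), Nqo1 (1.01), Mcm4 (1.07), Acadm (1.11), Cd36 (1.11), Trp53inp1 (1.33), Dock5 (1.82), Itgax (1.96), Serpinb2 (2.14), Rgs18 (2.24), Nlrp1b (2.51) and Itgad (2.64).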

How the results depend on the processing

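Of the 193 named genes called with LPS, 148 were called in every setting that tested them, out of 22 at the same threshold, and 8 of these were tested in 21. At an adjusted p under 0.01, 35 lost the call. Only the log2 fold change of Apoe changed sign, to 0.016 with GC and length offsets. The named genes were chosen for a low p or a large change in the same fit. Their counts therefore do not describe all 4656 called genes. At an adjusted p under 0.01, 2198 genes were called with LPS (863 higher, 1335 lower), 506 without LPS (219 and 287), and 371 in the interaction (60 above 0, 311 below). Library totals gave 4465 higher and 1329 lower with LPS, 1134 interaction terms above 0 and 448 below, and 0.175 for Hdac3. DESeq2 called 1792 interaction terms (596 and 1196). The GC and length offsets gave 1124 higher genes without LPS and 571 interaction terms above 0, and no low-count filter 1463 lower genes without LPS. Leaving out 1 of the 12 libraries gave 2798 to 6004 calls with LPS (1262 to 3007 higher, 1536 to 2997 lower), 779 to 2530 without LPS (267 to 1223 and 461 to 1335), 530 to 1995 interaction terms (108 to 957 and 405 to 1038), and -0.124 to -0.04 for Hdac3. Apart from the stricter threshold, the cause of these moves was not tested. Fewer libraries did not always give fewer calls: 6004 genes were called with LPS without replicate 1 of LPS-treated Hdac3f/f cells. The 6 libraries alone give no interaction. Whether replicate numbers pair the LPS-treated libraries was not settled. Deviations of same-numbered libraries of the 2 genotypes correlated at 0.217, -0.079 and 0.205, and those of differently numbered libraries at -0.327 to 0.171. With the replicate number as a block, 4990 genes were called with LPS (2510 and 2480), 1886 without LPS and 1196 in the interaction, and Hdac3 stood at -0.093. At 1 to 3 counts over a group, a ratio has the wide interval given with it.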
